A study of Mus musculus with 7 samples.

Results

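A set of 10 genes that mark T cells and cytotoxic lymphocytes was followed in RNA from hippocampal microglia: Cd3d, Cd3e, Cd3g, Trac, Lck, Cd8a, Cd8b1, Nkg7, Gzma and Gzmb. They were chosen by gene symbol, as the rows of the deposited count table whose GENCODE M21 symbol is one of these 10 names, out of 55401 genes in the table. Each of the 10 symbols matched 1 row. Adult C57BL/6 mice of 6 to 8 weeks, described as male in the series title, had been injected in the dorsal dentate gyrus with AAV-RAM-Cre and with one of 2 Cre-dependent viruses. In the 4 control libraries (EYFP 1 to 4) that virus was AAV-Dio-EYFP, which encodes a fluorescent protein. In the 3 other libraries (ATG7 1 to 3) it was AAV-Dio-Atg7-Flag, which encodes the tagged autophagy enzyme ATG7. All 7 libraries therefore came from mice that carried virus and Cre recombinase. RAM is a synthetic promoter switched on in recently active neurons, so the transgene was directed at memory engram neurons and not at the cells that were sequenced. Mice were perfused, hippocampal tissue was dissociated, and cells were enriched with beads against CD11b. The labels do not say whether a library came from 1 mouse or from several, so p-values measure the spread between these libraries.

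T cells recognise peptides through a receptor whose alpha and beta chains (Trac encodes the alpha constant region) assemble with the CD3 gamma, delta and epsilon chains. Binding leads the kinase LCK, carried by the CD4 or CD8 co-receptor, to phosphorylate the CD3 tails. Cytotoxic T cells and natural killer (NK) cells keep granules that hold granzymes, and NKG7 is a protein of the granule membrane. In the healthy brain such cells are scarce and lie mostly at its borders, in the meninges and choroid plexus. Most T cells lack CD11b, whereas NK cells and some activated CD8 T cells carry it.

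Total counts per library lay between 35934210 and 55217119, so 3 counts, the limit set by a count of 0, corresponded to between 0.0543 and 0.0835 CPM (counts per 1000000 counts of the library total). The microglial list was abundant in every library, with 12 of 12 markers tested and a summed level of 23200 to 28100 CPM in EYFP and 23300 to 27800 CPM in ATG7. Choroid plexus genes summed to 55700 to 71500 CPM in EYFP and 46000 to 61100 CPM in ATG7. Atg7 itself lay between 32.0 and 37.3 CPM in the 7 libraries, which were made from cells that the transgene did not target. The library labelled EYFP 3 had 938 CPM of Xist, the transcript of the inactive X chromosome, against 0.147 to 0.584 CPM in the 6 others, and 27.6 CPM of the Y-linked Ddx3y against 118 to 167 CPM. EYFP 3 thus held Xist together with Y-linked RNA (1245 counts of Ddx3y, 599 of Eif2s3y, 365 of Kdm5d and 333 of Uty). It does not match a library of males alone, and whether RNA of both sexes was mixed was not tested. Values without EYFP 3 are given beside the members and the lists in which it was often the lowest library.

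Raw counts of the 10 genes were between 1 and 224 per gene and library. The limit of 3 counts was reached in 68 of the 70 pairs of gene and library, and the exceptions were Cd8b1 and Cd3d in EYFP 3. The summed level of the 10 genes was 2.81-fold higher in ATG7 than in EYFP. The 10 genes together gave 315, 375, 166 and 245 counts in EYFP 1 to 4 (8.77, 8.11, 3.68 and 6.09 CPM), and 490, 828 and 1378 counts in ATG7 1 to 3 (12.3, 15.0 and 28.9 CPM). ATG7 3 stood above the other libraries and EYFP 3 below them, and the 2 groups did not overlap. Without ATG7 3 the ratio of the group means was 2.05, and without EYFP 3 it was 2.45. In bulk RNA of this kind, more cells of a type and more RNA per cell cannot be told apart.

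One of the 10 genes passed the test across all genes. Lck rose in ATG7 (adjusted p = 0.0192, quasi-likelihood test of edgeR with Benjamini-Hochberg adjustment), and the other 9 did not pass. Of 19199 genes tested, 0.688% were called higher in ATG7 by the same rule. All 10 had a log2 fold change above 0, against 49.1% of all genes tested, with a median of 1.64 against -0.00365 over all genes. An unadjusted p under 0.05 with a higher level in ATG7 was reached by 8 of the 10, against 6.27% of all genes. The groups did not overlap for 8 of the 10, against 5.21% of all genes, and the exceptions were Cd8b1 and Gzma. One member, Cd3d, passed the filter on low counts only through its ATG7 libraries, since 2 of its 4 EYFP libraries reached the 0.222 CPM that the filter asks of 3 libraries. The other 9 reached it in at least 3 EYFP libraries and would have passed from that group alone.

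**Figure D1:**
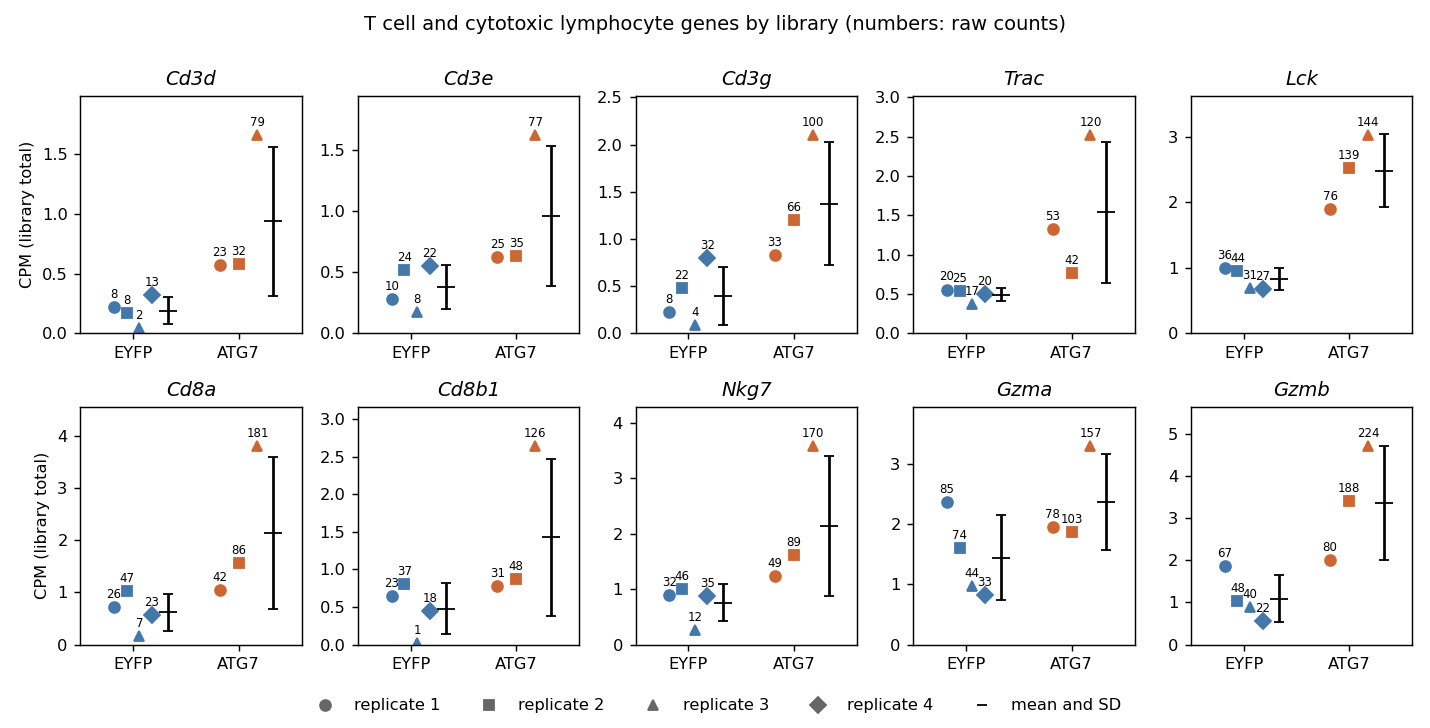
Level of each of the 10 genes by library, in CPM, on a linear axis from 0, with the raw count printed at each point and the mean and SD of each group beside it (EYFP, n = 4; ATG7, n = 3). ATG7 3 is the highest library in all 10 panels, and only in Cd8b1 and Gzma does an EYFP library reach above an ATG7 library.

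Lck is the Src-family kinase that starts signalling at the T cell receptor. It gave 36, 44, 31 and 27 counts in the EYFP libraries, in order, and 76, 139 and 144 counts in the ATG7 libraries. Every ATG7 library was well above every EYFP library, the highest EYFP value being 1.00 CPM and the lowest ATG7 value 1.90 CPM. Lck averaged 0.828 ± 0.173 CPM in EYFP (SD, n = 4) and 2.48 ± 0.559 CPM in ATG7 (SD, n = 3). The edgeR log2 fold change was 1.61, with a standard error (SE) of 0.255. The exact permutation p over the 35 ways of splitting 7 libraries into 4 and 3 was 0.0286, two-sided, which is the smallest this design can give. Of the 10 genes Lck was the one least moved by ATG7 3, where its level was 1.37 times the mean of the other 2 ATG7 libraries. The edgeR call was lost when 1 of 3 libraries was left out: the adjusted p was 0.0759 without EYFP 4, 0.0832 without ATG7 2 and 0.115 without ATG7 3. It held without any 1 of the 4 others, with 0.0373 without EYFP 3. Lck (ENSMUSG00000000409) lies on the minus strand of chromosome 4 at 129548344 to 129573641 in GRCm38, and the microRNA gene Mir8119 overlaps 25 bases of its exons on the same strand.

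Lck has 2 annotated start regions, which gene counts do not tell apart. They are shown because Lck was the gene that passed, and the granzyme promoters are shown beside them because their ratio, given further on, did not overlap between the groups. Sequences are from RefSeq on GRCm38.p6, 250 bases before to 50 after the start, 5′ to 3′ on the gene's strand. Capitals mark matches to TGTGGT, the core bound by RUNX factors, which act in T and NK cells, and to AGGAAG, a core bound by ETS factors, each searched on both strands.
Lck upstream start, chr4:129573592-129573891, minus strand: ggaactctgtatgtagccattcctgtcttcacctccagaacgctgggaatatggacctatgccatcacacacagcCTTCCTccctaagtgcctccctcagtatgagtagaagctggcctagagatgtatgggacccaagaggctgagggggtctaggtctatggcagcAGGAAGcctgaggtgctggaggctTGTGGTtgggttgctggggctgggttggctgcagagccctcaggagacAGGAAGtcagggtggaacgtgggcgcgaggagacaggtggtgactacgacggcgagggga
Lck downstream start, chr4:129558323-129558622, minus strand: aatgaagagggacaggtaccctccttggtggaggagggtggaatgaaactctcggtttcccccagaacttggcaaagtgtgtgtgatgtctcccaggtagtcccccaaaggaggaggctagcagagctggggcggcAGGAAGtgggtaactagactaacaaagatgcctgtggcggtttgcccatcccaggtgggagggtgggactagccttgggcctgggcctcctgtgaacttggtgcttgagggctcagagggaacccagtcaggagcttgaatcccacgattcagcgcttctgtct
Gzmb, chr14:56262285-56262584, minus strand: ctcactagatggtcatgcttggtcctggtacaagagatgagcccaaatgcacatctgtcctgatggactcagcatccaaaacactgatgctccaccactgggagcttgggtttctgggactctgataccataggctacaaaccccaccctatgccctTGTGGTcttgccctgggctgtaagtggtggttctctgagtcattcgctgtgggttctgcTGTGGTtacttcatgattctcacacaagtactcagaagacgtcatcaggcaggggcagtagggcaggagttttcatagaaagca
Gzma, chr13:113100932-113101231, minus strand: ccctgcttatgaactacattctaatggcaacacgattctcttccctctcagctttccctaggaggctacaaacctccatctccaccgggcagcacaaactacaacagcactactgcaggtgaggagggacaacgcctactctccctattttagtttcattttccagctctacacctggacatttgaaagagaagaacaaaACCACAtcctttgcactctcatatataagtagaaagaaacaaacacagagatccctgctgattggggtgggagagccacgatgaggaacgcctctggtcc

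RefSeq start regions were found for 8 of the 10 genes, with 9 entries because of the 2 for Lck, and none was at hand for Cd8b1 and Trac. TGTGGT or its complement stood in 4 of the 9 (upstream Lck, Nkg7, Gzma and Gzmb), against 16.8% of 32851 promoter entries of the same length. Gzmb held 2 such matches. AGGAAG or its complement was in 5 of the 9 (both Lck entries, Nkg7, Cd3d and Cd3e), against 35.4% of all entries. These matches describe the letters of the windows and show no binding.

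The CD3 chains had the fewest counts of the genes, and they and Trac did not pass. Cd3d, the CD3 delta chain, gave 8, 8, 2 and 13 counts in EYFP and 23, 32 and 79 in ATG7. Its EYFP values ran from 0.0443 to 0.323 CPM, and the 2 counts of EYFP 3 lie under the limit of 3. The log2 fold change of 2.33 was the largest among the 10 genes (SE 0.564, edgeR adjusted p = 0.106). Without ATG7 3 it was 1.61 (edgeR adjusted p = 0.469), and without EYFP 3 it was 1.99 (edgeR adjusted p = 0.152).

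Cd3g, the CD3 gamma chain, gave 8, 22, 4 and 32 counts in EYFP and 33, 66 and 100 in ATG7. EYFP 4, at 0.795 CPM, came close to ATG7 1, at 0.827 CPM, so the groups were separated by little. Cd3e, the epsilon chain, gave 10, 24, 8 and 22 counts in EYFP and 25, 35 and 77 in ATG7. ATG7 1 and ATG7 2 were at 0.626 and 0.634 CPM, just above the 0.547 CPM of EYFP 4, and ATG7 3 was at 1.62 CPM. The log2 fold changes were 1.82 for Cd3g (edgeR adjusted p = 0.220) and 1.35 for Cd3e (edgeR adjusted p = 0.276), and without EYFP 3 they were 1.47 and 1.10. An exon of Cd3e shares 135 bases with the antisense gene Gm48719, and the handling of strand is not given in the sources used here. Cd3g, Cd3d and Cd3e are neighbours on chromosome 9, between 44969572 and 45009627, and exons of Cd3d and Cd3g overlap no other gene.

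Trac gave 20, 25, 17 and 20 counts in EYFP and 53, 42 and 120 in ATG7. Its EYFP libraries were the closest together of any gene of the 10, at 0.493 ± 0.0813 CPM (SD, n = 4), and its ATG7 libraries were spread from 0.761 to 2.52 CPM. Trac had a log2 fold change of 1.66 (SE 0.390, edgeR adjusted p = 0.0961), and of 1.55 without EYFP 3. The beta chain constant regions, Trbc1 and Trbc2, are near-identical copies between which reads can be split. Trbc1 gave 9, 16, 4 and 10 counts in EYFP and 19, 30 and 64 in ATG7, and Trbc2 gave 18, 26, 6 and 13 and then 39, 42 and 99. Both had a log2 fold change of 1.77 (edgeR adjusted p = 0.168 and 0.152), and in both the groups did not overlap.

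CD8 binds MHC class I and is made of the chains encoded by Cd8a and Cd8b1, which lie on chromosome 6 at 71373427 to 71379173 and at 71322788 to 71337494. Cd8a gave 26, 47, 7 and 23 counts in EYFP and 42, 86 and 181 in ATG7. The lowest ATG7 library, at 1.05 CPM, was next to the highest EYFP library, at 1.02 CPM. Cd8b1, the chain more restricted to conventional CD8 T cells, gave 23, 37, 1 and 18 counts in EYFP and 31, 48 and 126 in ATG7. EYFP 2, at 0.800 CPM, was above ATG7 1, at 0.777 CPM. The log2 fold changes were 1.82 for Cd8a (SE 0.567, edgeR adjusted p = 0.230) and 1.61 for Cd8b1 (SE 0.738, edgeR adjusted p = 0.438). Both depended on ATG7 3, where the level was 2.91 times the mean of ATG7 1 and 2 for Cd8a and 3.21 times for Cd8b1, and without it the log2 fold changes were 1.09 and 0.79. Without EYFP 3, where Cd8b1 had 1 count, they were 1.49 and 1.2.

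Nkg7 gave 32, 46, 12 and 35 counts in EYFP and 49, 89 and 170 in ATG7, and averaged 0.755 ± 0.331 CPM in EYFP (SD, n = 4) and 2.14 ± 1.25 CPM in ATG7 (SD, n = 3). Its groups did not overlap, and its log2 fold change was 1.53 (SE 0.459, edgeR adjusted p = 0.20). Without ATG7 3 the log2 fold change was 0.92, and without EYFP 3 it was 1.24.

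The granzymes, serine proteases released from cytotoxic granules, had the most raw counts of the genes over the 7 libraries together, although in ATG7 Lck averaged more CPM than Gzma (2.48 against 2.37). Gzmb gave 67, 48, 40 and 22 counts in EYFP and 80, 188 and 224 in ATG7. EYFP 1, at 1.86 CPM, came close to ATG7 1, at 2.00 CPM, and the log2 fold change was 1.67 (SE 0.387, edgeR adjusted p = 0.0959), or 1.59 without EYFP 3. Gzma gave 85, 74, 44 and 33 counts in EYFP and 78, 103 and 157 in ATG7. EYFP 1, at 2.37 CPM, was above both ATG7 1 and ATG7 2, at 1.95 and 1.87 CPM. Gzma had the smallest log2 fold change of the 10, 0.75 (SE 0.359, edgeR adjusted p = 0.447), and an exact permutation p of 0.20, two-sided. Without EYFP 3 the log2 fold change was 0.60.

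Within a library the ratio of Gzma to Gzmb counts was 1.10 to 1.54 in EYFP and 0.548 to 0.975 in ATG7. Gzma thus exceeded Gzmb in 4 of 4 EYFP libraries and in 0 of 3 ATG7 libraries. That ratio was close to 1, with few counts between the genes, in ATG7 1 (78 against 80) and in EYFP 3 (44 against 40). The exact permutation p was 0.0286, two-sided, and 0.143 after Benjamini-Hochberg adjustment over the 5 ratios between members that were examined after their values were seen. The 4 other ratios overlapped between the groups: Cd8a to Cd3e ran from 0.875 to 2.60 in EYFP and from 1.68 to 2.46 in ATG7. Gzma to Cd3e ran from 1.5 to 8.5 in EYFP, with EYFP 1 at the upper end and EYFP 4 at the lower, and from 2.04 to 3.12 in ATG7. The libraries of the EYFP group thus differed in the balance of granzyme and CD3 transcripts: granzymes made up 48.3%, 32.5%, 50.6% and 22.4% of the counts of the 10 genes in the EYFP libraries, and 32.2%, 35.1% and 27.6% in the ATG7 libraries.

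**Figure D2:**
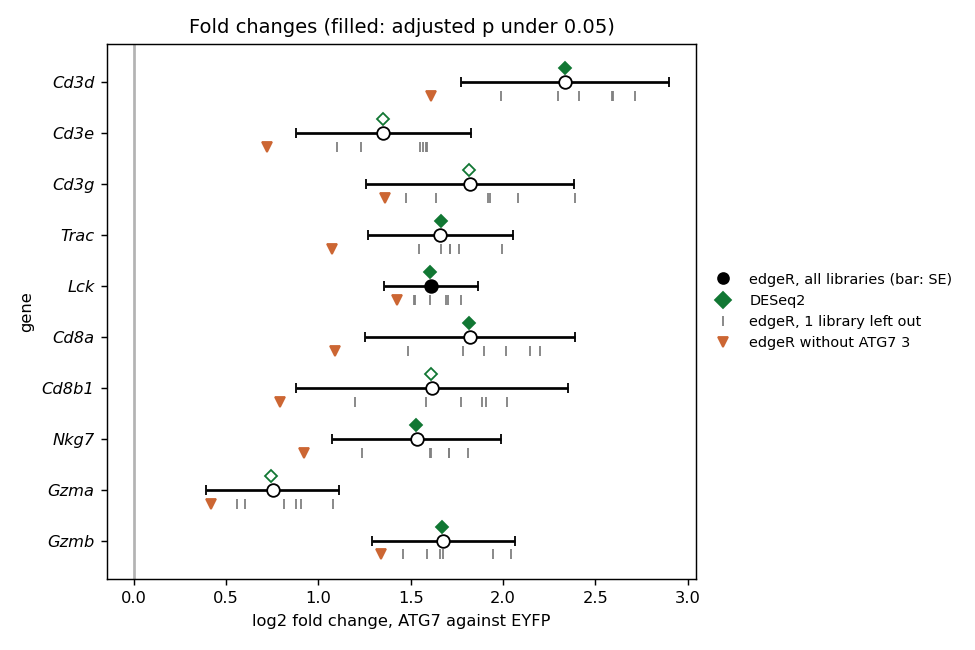
Log2 fold change of each gene, ATG7 against EYFP: edgeR with all 7 libraries (circles, bars show the SE), DESeq2 (diamonds) and edgeR with 1 library left out (ticks, with a triangle for the fit without ATG7 3). Filled circles and diamonds passed at an adjusted p under 0.05, which in edgeR was Lck alone, and the fit without ATG7 3 gave the smallest value of each gene among those that left out 1 library.

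The number of the 10 genes called depended on the test. The DESeq2 Wald test called 6 (Cd3d, Cd8a, Lck, Nkg7, Gzmb and Trac), where 2.11% of all genes were called higher. With no filter on low counts edgeR called 3 (Cd3d, Lck and Trac), where 0.709% of all genes were called higher. It called 1, Lck, without EYFP 3 (all genes, 0.749%). It called 0 without ATG7 3 (all genes, 0.138%), without ATG7 2 (0.134%) and without EYFP 4 (0.142%). The direction was the same for all 10 genes in each of these fits. Without ATG7 3 an unadjusted p under 0.05 remained for 4 of the 10, against 1638 of 19532 genes in either direction. The median log2 fold change of the 10 was then 1.08, against -0.0136 over all genes. ATG7 3 was the highest library in all 10 genes, as it was in 11.9% of all genes tested. Leaving it out therefore cannot make groups overlap, and 8 of the 10 did not overlap without it, against 8.83% of all genes.

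Levels were compared between genes as CPM per kilobase of annotated exon, counting all exons of a gene, which lowers the value of genes with long rare transcripts. In EYFP the order from the top was Gzma (1.43), Nkg7 (0.826), Gzmb (0.755), Trac (0.527), Cd8b1 (0.322), Lck (0.283), Cd8a (0.170), Cd3g (0.121), Cd3d (0.105) and Cd3e (0.0932). Of the 9 neighbouring pairs in this order, Lck and Cd8a were the pair that differed by more than the larger of their SDs, by 0.113 against 0.0986. In ATG7 the granzymes and Nkg7 stood level at 2.34 to 2.36, followed by Trac (1.64), Cd8b1 (0.964), Lck (0.847), Cd8a (0.587), Cd3d (0.517), Cd3g (0.420) and Cd3e (0.235), and no neighbouring pair differed by more than its spread.

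None of the other genes of T cells passed the test. Of 39 such genes, 35 were tested and 33 had a log2 fold change above 0, against 49.1% of all genes tested. By the edgeR test 0 passed, and 21 had an unadjusted p under 0.05, all higher in ATG7 (all genes, 6.27%). The groups did not overlap for 14, all higher in ATG7 (all genes, 5.21%). The median log2 fold change of the 35 was 0.74, and it was 0.66 without ATG7 3 and 0.70 without EYFP 3. Of the 35, 6 passed the filter on low counts only through their ATG7 libraries; the 29 others had a median of 0.71, with 10 non-overlapping. The smallest p was that of Cd6, a T cell co-receptor, which gave 6, 11, 9 and 11 counts in EYFP and 31, 27 and 64 in ATG7 (log2 fold change 1.99, SE 0.413, edgeR adjusted p = 0.0590). Cd6 is one of those 6, with 2 EYFP libraries over the filter. Cd40lg, the ligand of CD40 on activated T helper cells, was too low to test. It was at 0 counts in all 4 EYFP libraries and at 1, 4 and 14 counts in ATG7 1 to 3, with ATG7 1 under the limit of 3. The other genes of the list that were too low to test overlapped between the groups. Trdc gave 8, 2, 1 and 0 counts in EYFP and 4, 8 and 13 in ATG7. Sh2d1a gave 3, 7, 0 and 0 and then 2, 3 and 14, and Ctla4 gave 1, 5, 2 and 9 and then 0, 6 and 6. The summed level of the list, 386 to 493 CPM in EYFP and 502 to 547 CPM in ATG7, was set by 7 genes with a mean of at least 5 CPM, among them Lcp2 and Fyb, which myeloid cells also express. The other 28 tested genes had a median log2 fold change of 1.21. Cd4, which marks helper T cells and also some myeloid cells, averaged 6.99 ± 1.04 CPM in EYFP (SD, n = 4) and 8.13 ± 0.674 CPM in ATG7 (SD, n = 3), with overlapping groups (log2 fold change 0.24, edgeR adjusted p = 0.581). Gata3 (-0.17) and Il7r (-0.08) were the 2 genes with a log2 fold change below 0.

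Among 23 other genes of cytotoxic and NK cells, 21 were tested. Of these, 18 had a log2 fold change above 0 (all genes, 49.1%) and 1 passed (all genes called higher, 0.688%). The genes below 0 were the granzyme Gzmm (-0.39), Klrd1 (-0.2) and Cd160 (-0.19), with edgeR adjusted p = 0.442, 0.661 and 0.895. Gzmm averaged 5.54 CPM in EYFP and 4.19 CPM in ATG7, and Klrd1 averaged 6.11 and 5.23 CPM. An unadjusted edgeR p under 0.05 was reached by 12, all higher in ATG7 (all genes, 6.27%). The groups did not overlap for 6, all higher in ATG7 (all genes, 5.21%). Of the 21, 5 passed the filter only through their ATG7 libraries. Ctsw, a cathepsin of cytotoxic lymphocytes, rose by 1.26 on the log2 scale (SE 0.205, edgeR adjusted p = 0.0206), from a mean of 1.30 ± 0.179 CPM in EYFP (SD, n = 4) to 3.07 ± 0.414 CPM in ATG7 (SD, n = 3). Its counts were 49, 69, 48 and 52 in EYFP and 106, 169 and 166 in ATG7. The call of Ctsw was lost without EYFP 4 (edgeR adjusted p = 0.0803), ATG7 2 (0.0953) or ATG7 3 (0.131), and the median of the list went from 0.76 to 0.50 without ATG7 3 and to 0.62 without EYFP 3. The 5 other genes without overlap were Ccl5, Gzmk, Il2rb, Klre1 and Xcl1. Ccl5, a chemokine made by cytotoxic lymphocytes and also by other cells, averaged 16.6 ± 7.69 CPM in EYFP (SD, n = 4) and 65.3 ± 11.9 CPM in ATG7 (SD, n = 3). Its log2 fold change was 2.00 (edgeR adjusted p = 0.163), and without EYFP 3 it was 1.71 and passed (edgeR adjusted p = 0.00122). The cytokine receptor chain Il2rb, the NK cell receptor Klre1 and the chemokine Xcl1 had log2 fold changes of 1.06, 1.51 and 1.63 (edgeR adjusted p = 0.213, 0.218 and 0.302). The pore-forming protein perforin, Prf1, overlapped between groups, with 29, 31, 11 and 17 counts in EYFP and 25, 48 and 76 in ATG7. The NK cell receptors Ncr1 and Klrb1c also overlapped: Ncr1 gave 19, 19, 13 and 8 counts and then 8, 33 and 43, and Klrb1c 45, 30, 21 and 7 and then 26, 46 and 55. Their log2 fold changes were 0.71 and 0.51 (edgeR adjusted p = 0.640 and 0.755). Gzmk, a granzyme of memory CD8 T cells, gave 1, 7, 0 and 7 counts in EYFP and 11, 16 and 44 in ATG7 (log2 fold change 2.47, edgeR adjusted p = 0.215). Klre1, Xcl1 and Gzmk are among the 5 that passed the filter only through ATG7, and for Gzmk 0 of the 4 EYFP libraries reached it.

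**Figure D3:**
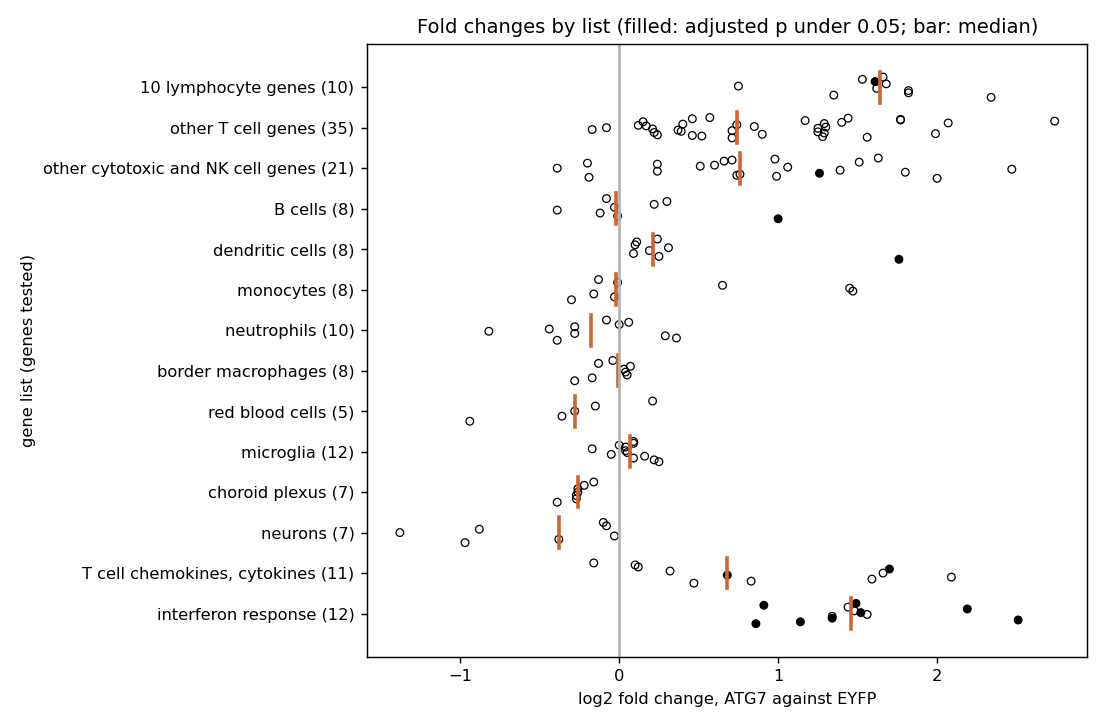
Log2 fold change, ATG7 against EYFP, of each tested gene in 14 lists, with the number of genes tested in brackets, filled points for an edgeR adjusted p under 0.05 and a bar at the median. The medians of the 10 lymphocyte genes (1.64) and of the interferon response (1.46) lie to the right of those of B cells (-0.02), monocytes (-0.02) and neutrophils (-0.18).

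Markers of other blood and border cells were measured in the same libraries. B cell genes summed to 264 to 307 CPM in EYFP and 245 to 301 CPM in ATG7, with 3 of 8 tested genes above 0 and a median log2 fold change of -0.02. One of them, Cd22, an inhibitory receptor also made by microglia, rose from a mean of 11.7 ± 1.70 CPM in EYFP (SD, n = 4) to 22.9 ± 1.94 CPM in ATG7 (SD, n = 3) (log2 fold change 1.00, edgeR adjusted p = 0.00705). Among dendritic cell genes, Ccr7, the receptor that leads cells to lymph nodes, rose by 1.76 on the log2 scale (SE 0.275, edgeR adjusted p = 0.0182), from 40, 52, 37 and 75 counts in EYFP to 127, 225 and 239 in ATG7. That call was lost without ATG7 2 (edgeR adjusted p = 0.0757) and without ATG7 3 (0.115). The dendritic cell list summed to 50 to 57.5 CPM and 55.9 to 70.5 CPM, and its 7 other genes did not pass. Border macrophage genes summed to 1390 to 1710 CPM in EYFP and 1440 to 1500 CPM in ATG7, and red cell genes to 0.920 to 6.87 CPM and 0.652 to 5.75 CPM. Monocyte genes summed to 713 to 931 CPM in EYFP and 639 to 723 CPM in ATG7, and 0 of 8 passed in edgeR. Of the 8, 3 had a log2 fold change above 0 (all genes, 49.1%), with a median of -0.02. An unadjusted edgeR p under 0.05 was reached by 2 with a higher level in ATG7 (all genes, 6.27%) and by 1 with a lower level. The summed level of the monocyte list was set by Ace, at 783 ± 109 CPM in EYFP (SD, n = 4). The 7 other genes summed to 32.9 to 40.1 CPM in EYFP and to 31.9, 41.3 and 61.5 CPM in ATG7. Plac8 gave 152, 195, 81 and 110 counts in EYFP and 188, 624 and 479 in ATG7, without overlap, and Ly6c2, the Ly6C antigen of classical monocytes, gave 108, 202, 70 and 85 and then 121, 352 and 626. Their log2 fold changes were 1.45 and 1.47 (edgeR adjusted p = 0.128 and 0.330). Ccr2 (-0.03), Vcan (-0.13), Chil3 (-0.16), Ace (-0.3) and Treml4 (-0.01) were below 0.

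ATG7 3 was also high in neutrophil genes. Leaving aside Csf3r, which was at 540 ± 93.9 CPM (SD, n = 4) in EYFP, the 9 other neutrophil genes summed to 84.8, 84.2, 114 and 49.2 CPM in EYFP and to 27.5, 33.5 and 159 CPM in ATG7. ATG7 3 was thus the highest library in this sum, and ATG7 1 and ATG7 2 were the lowest. In 8 of the 10 lymphocyte genes, ATG7 1 and ATG7 2 were above every EYFP library, against 8.83% of all genes tested. EYFP 3 was the highest EYFP library in neutrophil genes and the lowest in 7 of the 10 lymphocyte genes, as it was in 10.7% of all genes tested. The part of blood cells in the lymphocyte difference was not tested.

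Interferon-response genes, which cells switch on when interferons bind their receptors, separated the groups in the same libraries. Their 12 genes summed to 368, 306, 193 and 278 CPM in EYFP and to 543, 728 and 732 CPM in ATG7. All 12 had non-overlapping groups, all higher in ATG7, against 5.21% of all genes tested. Of the 12, 8 passed, against 0.688% of all genes called higher. Among the 8 were Gbp2 (log2 fold change 1.14) and Ifi214 (2.51), each with an edgeR adjusted p of at most 0.00714. The list was chosen with earlier results of these data known. Without ATG7 3, 3 of the 12 passed (all genes, 0.138%). Without EYFP 3 all 12 passed (all genes, 0.749%), with a median log2 fold change of 1.22 in place of 1.46. EYFP 3 was the lowest library in all 12. ATG7 2 and ATG7 3 had nearly the same interferon sum, while the lymphocyte sum of ATG7 3 was 28.9 CPM against 15.0 CPM in ATG7 2. Ifng, the T and NK cell interferon, gave 1, 0, 0 and 1 counts in EYFP and 3, 6 and 5 in ATG7 and was not tested.

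**Figure D4:**
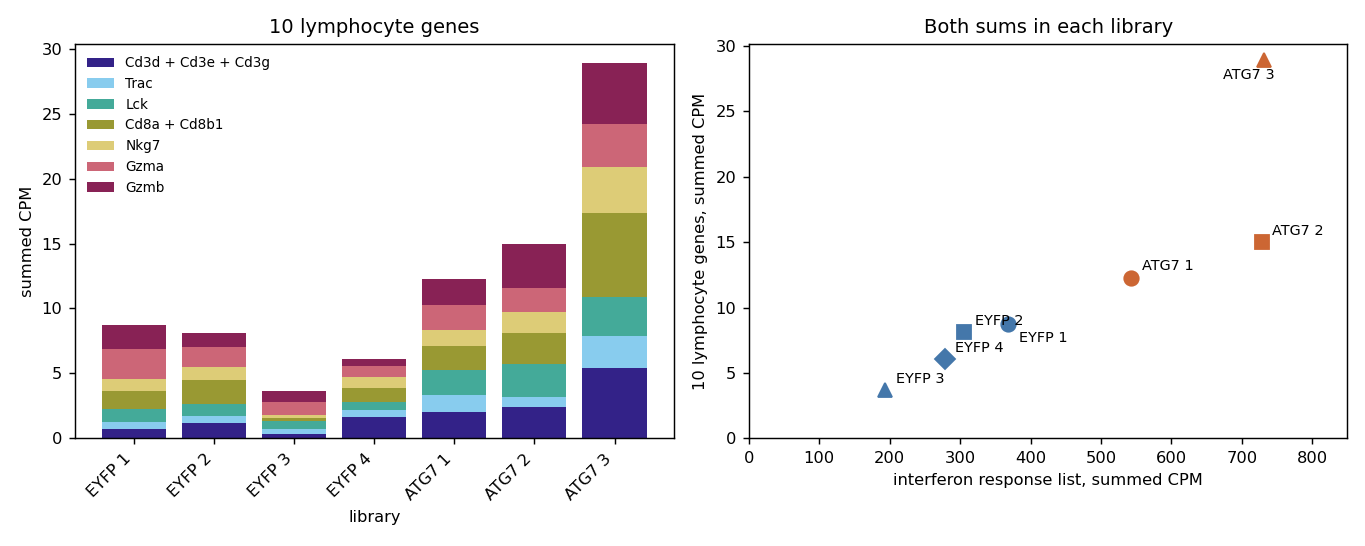
Left, summed level of the 10 genes in each library, stacked by gene or chain group, in CPM. Right, the same sum against that of the 12 interferon-response genes, with each library named and both axes from 0: EYFP 3 is lowest on both, and ATG7 3 stands above ATG7 2 in lymphocyte genes (28.9 against 15.0 CPM) at a like interferon level (732 against 728 CPM).

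Chemokines that attract T cells and cytokines that act on them were also listed, 14 in number. Of these, 11 were tested and 2 passed, against 0.688% of all genes called higher. Cxcl16, the ligand of CXCR6 on effector T cells, rose by 0.68 on the log2 scale (SE 0.130, edgeR adjusted p = 0.0420), from a mean of 34.1 ± 5.44 CPM in EYFP (SD, n = 4) to 53.8 ± 6.75 CPM in ATG7 (SD, n = 3). Il12b, the shared subunit of interleukins 12 and 23, rose by 1.70 (SE 0.304, edgeR adjusted p = 0.0293). Neither passed without ATG7 3, without ATG7 2 or without EYFP 4, Cxcl16 did not without EYFP 3 (edgeR adjusted p = 0.0571), and Il12b did not without ATG7 1 (0.0606). Their adjusted p reached 0.206 and 0.143 in the fits without ATG7 3. The ligands of CXCR3 did not pass but did not overlap: Cxcl9 gave 296, 480, 107 and 455 counts in EYFP and 1008, 1255 and 1289 in ATG7, and Cxcl10 gave 815, 876, 213 and 725 and then 1336, 3254 and 2387. Their log2 fold changes were 1.66 and 1.59 (edgeR adjusted p = 0.226 and 0.297). Without EYFP 3 both passed, at 1.34 and 1.28 (edgeR adjusted p = 0.00293 and 0.0180). The receptor Cxcr6 gave 37, 55, 25 and 40 counts in EYFP and 55, 94 and 166 in ATG7, also without overlap (log2 fold change 1.25, edgeR adjusted p = 0.179). Cxcr3 did overlap, at 2.58 ± 0.413 CPM in EYFP (SD, n = 4) and 2.96 ± 0.989 CPM in ATG7 (SD, n = 3).

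The genes whose profile over the 7 libraries was most like that of the summed 10 genes, by Pearson correlation of log2 CPM, were Lat (0.991), the adaptor phosphorylated downstream of the T cell receptor, Dck (0.991), a nucleoside kinase, Ifi47 (0.986), an interferon-inducible GTPase, the unnamed locus Gm13822 (0.984) and Gmnn (0.984), a regulator of DNA replication. With 7 libraries that share 2 groups such values are common, and 218 of 19189 genes had a correlation above 0.9. Lat gave 31, 43, 23 and 28 counts in EYFP and 41, 66 and 84 in ATG7, and did not pass (log2 fold change 0.85, edgeR adjusted p = 0.278).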

How the data were processed

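RNA was sequenced from CD11b-enriched cells of the dorsal hippocampus (4 EYFP and 3 ATG7 libraries), with libraries made with a VAHTS mRNA kit, per the labels' protocols. The authors deposited raw counts per Ensembl gene, 7 columns of whole numbers, each matched to a sample by its name. The submitters' processing notes name fastp 0.20.1, HISAT2 2.0.5, featureCounts and the build GRCm38 (mm10). The annotation release and the handling of strand and shared reads are not given in the sources used here. Genes were named and placed with GENCODE M21, which matched 55141 of 55401 identifiers. The 37 mitochondrial genes held 0 counts.

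Counts were tested with edgeR 4.0.16 (R 4.3.3): TMM factors, filterByExpr, robust quasi-likelihood fit, all 7 libraries, no covariate, two-sided, Benjamini-Hochberg adjustment over 19199 genes, threshold 0.05. SE is the size of the log2 fold change over the square root of the F statistic. The fit was tested on simulated counts. CPM uses library totals. Single genes were also compared by an exact permutation test on CPM. Group medians and shares are set beside those of all genes. The named genes were the 10 members, for each list up to 3 passing genes ranked by p (or, where none passed, the top-ranked gene), and the 5 genes with the most similar profile; others were chosen after their values were seen, and some genes are not reported here. Members, lists, motifs and tests were chosen with earlier results of these data known. DESeq2 1.42.0, other scalings, other filters, a replicate block and leaving out each library were tried. The limit of 3 counts covers counting error only, and SDs and SEs include the spread between libraries. Libraries of a group differed beyond sampling noise (chi-square of at least 19.17 per degree of freedom).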

Additional observations from a re-analysis of the deposited data

Results flagged for a closer look

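Within the 4 EYFP libraries, each of the 10 genes was checked for a library set apart from the others by Dixon's critical value for 4 values, 0.829. One was: Nkg7 in EYFP 3, at 0.266 CPM (12 counts), against 0.891, 0.994 and 0.870 CPM in EYFP 1, 2 and 4. Chance sets apart about 1 in 20 groups, so 1 of 10 is little more than that. EYFP 3 is the library with Xist at 938 CPM. Without it the log2 fold change of Nkg7 was 1.24 rather than 1.53, and the gene passed in neither edgeR fit (adjusted p = 0.234 and 0.20). Over its 15 alternatives the adjusted p ran from 0.0412 to 0.761.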

How the results depend on the processing

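Leaving out EYFP 3 and ATG7 3 together was chosen after seeing the data. The number of genes that differed was 145 as reported, 297 with no filter, 582 with the DESeq2 Wald test, 35 without EYFP 3 and ATG7 3 together, and between 28 (without ATG7 2) and 277 (without EYFP 1) when 1 library was left out. It was also 30 without EYFP 4, 30 without ATG7 3 and 94 without EYFP 2. With the replicate number as a replicate block it was 0 (edgeR; 1256 genes had an unadjusted p under 0.05), and the adjusted p of Lck was 0.293. The numbers are not known to pair the libraries: deviations of same-numbered libraries correlated at -0.061, -0.182 and 0.066. For the 10 genes, 132 alternative fold changes kept their direction and call, 8 gained a call, 5 lost one (all of Lck) and none reversed. Lck passed in 10 of 15 alternatives, with an adjusted p from 5.30e-06 to 0.293. Without EYFP 3 and ATG7 3 together the median log2 fold change of the 10 genes was 0.865 and 0 passed (edgeR). An unadjusted edgeR p under 0.05 was reached by 4 of the 10, against 1576 of 19218 genes in either direction. No difference of mean CPM reached an exact permutation p under 0.05 when a library was left out. The exact test cannot go below 0.0667 without an ATG7 library, or below 0.1 without an EYFP library. In 56 of these fits the gene had been under 0.05 with all 7 libraries. A mean CPM of at least 1 leaves 5 of the 10 genes without a value. Raw counts in EYFP, from 1 to 85 per gene and library with a median of 23.5, limit the precision.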
